A study of Drosophila melanogaster with 25 samples.

Results

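Wild-type antennal and wild-type wing imaginal discs of Drosophila melanogaster larvae of the third instar were compared, using the 3 antennal and the 3 wing arrays among the 25 arrays of the study. Imaginal discs are the epithelial sacs of the larva from which the appendages of the adult are built. Here the antennal disc stands for a ventral appendage of the head and the wing disc for a dorsal appendage of the thorax. The study held 8 groups of discs on Affymetrix Drosophila Genome 2.0 arrays: wild-type eye discs (4 arrays), wild-type antennal, leg and wing discs, UAS-ey leg and wing discs, Uey antennal discs and ato-mutant UAS-ey leg discs (3 arrays each). UAS-ey is a transgene for eyeless (ey), the Pax6 gene of the retinal determination network. The driver of that transgene was not given in the sources used here, nor were the ato allele, the meaning of Uey, the wild-type strain or the number of discs per array. The series' design text calls the samples biological replicates.

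Serially homologous appendages are made different by selector genes, transcription factors that fix the identity of a segment or field. Hox genes set the segment: Antennapedia (Antp) acts in the thorax, Deformed (Dfd) in the maxillary part of the head, and loss or gain of Antp is known for exchanging antenna and leg. Within an appendage, vestigial, nubbin and apterous build the wing blade and its dorsal side, whereas Distal-less, disconnected, Lim1 and the T-box genes mid and H15 pattern ventral limbs. spineless, cut, distal antenna (dan) and distal antenna-related (danr) belong to the antennal programme.

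Signals are log2 values as deposited, with a common lowest value of 6.91 on every array (120.5 on the linear scale), called the floor below. Values are given in the order of replicates 1, 2 and 3. A difference is antennal minus wing, with its standard error (SE) from limma fitted to all 25 arrays, and a call means an adjusted p under 0.05 over the 18769 probe sets tested. Where a disc was at the floor on all 3 arrays, the fold is a lower bound and is written "at least". For such genes the SE can understate the spread, since arrays at the floor do not vary. The SE pools the spread of all 8 groups, so another group with a wide spread can also enlarge it.

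The arrays differed before any gene was considered. The Bacillus phe transcript, a control RNA of the array system and no fly gene, gave signals of 8.69, 9.13 and 9.50 on the antennal arrays and of 9.77, 10.65 and 10.43 on the wing arrays. These ranges did not overlap (difference -1.18; exact permutation test, two-sided, p = 0.10, the smallest that 3 against 3 allows, and 0.20 after adjustment over phe, the cre control and 2 ratios of 3′ to 5′ signal). The 3′ over 5′ signal difference of GAPDH, a measure of RNA quality, was 2.07 ± 0.08 in antennal and 2.27 ± 0.25 in wing discs (SD, n = 3 each; exact permutation p = 0.40). The cre control RNA differed the opposite way to phe, also without overlap. It was at 13.78, 13.71 and 13.78 on the antennal and 13.35, 13.42 and 13.27 on the wing arrays (difference 0.407, exact permutation p = 0.10). Wild-type wing replicate 1 also stood apart. The differences between it and the other 2 wing arrays had SDs of 0.357 and 0.316 across probe sets, against 0.138 between wing replicates 2 and 3 and 0.146 to 0.173 among the antennal arrays. Since the phe and cre signals both separated the discs, neither can be fully told apart from disc. Every gene was also fitted with phe as a covariate, but not with cre.

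Of all probe sets, 2428 (12.9%) were called: 630 (3.36%) higher in antennal discs and 1798 (9.58%) higher in wing discs. These 2 shares are the background for each count of listed genes below. The number called was 1165, 1173 and 1865 without antennal replicates 1, 2 and 3, and 3860, 984 and 978 without wing replicates 1, 2 and 3. With quantile normalization 2351 were called, of which 48.4% were higher in antennal discs in place of 25.9%, and fitted to the 6 arrays alone 334 were higher in antennal and 325 in wing discs. The surplus on the wing side was thus absent under these alternatives, and its cause was not tested. At 2-fold or more, 104 probe sets (0.554%) were higher in antennal and 325 (1.73%) in wing discs. The arrays of the discs did not overlap for 424 of these 429, against 4969 of all 18769 probe sets tested. The 429 were chosen by fold and adjusted p from the same arrays, so their separation is no independent support. Leaving out 1 array gave 97 to 110 calls of at least 2-fold on the antennal side. On the wing side it gave 172 (without wing replicate 2) to 497 (without wing replicate 1). The counts were 123 and 286 with quantile normalization, 140 and 268 after centring on array medians, and 88 and 83 with the 6 arrays alone.

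The phe covariate separated the sides further. Of the 104 probe sets higher in antennal discs, 88 were still called with it, and their median difference was 1.55 without and 1.58 with it. Of the 325 higher in wing discs, 86 were still called, and the median difference was -1.36 without and -0.725 with it. Of those differing at least 8-fold, 17 of 17 on the antennal side and 20 of 27 on the wing side kept their call. Most of the smaller wing calls thus cannot be told apart from the phe signal.

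**Figure D1:**
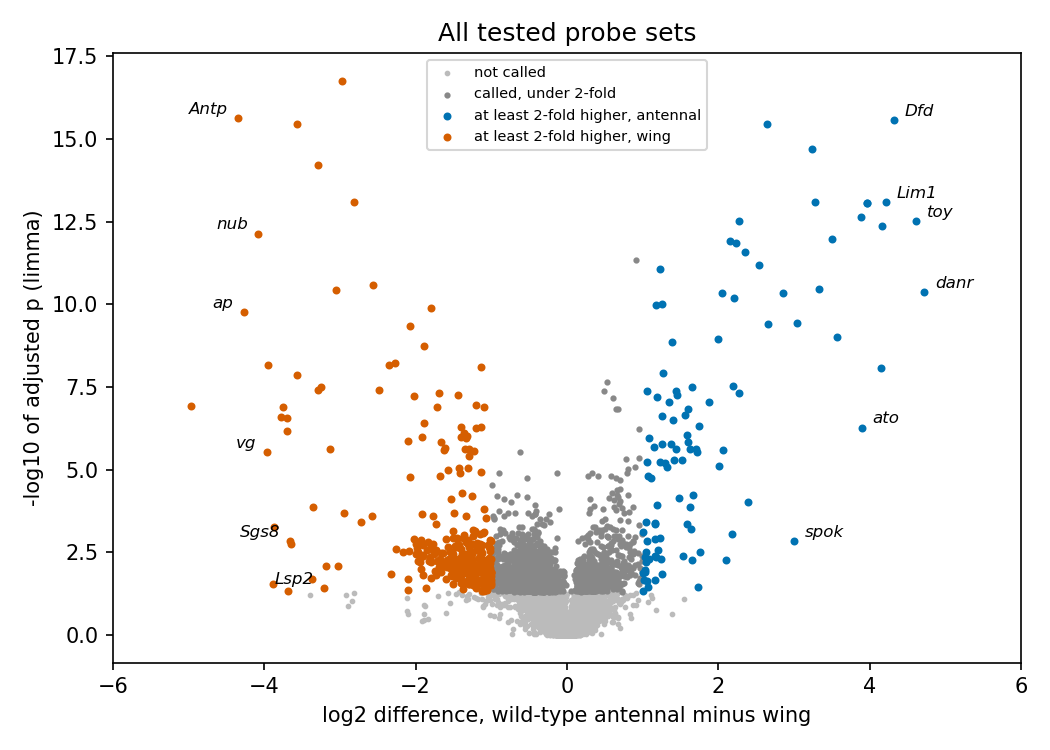
Each point is 1 of the 18769 probe sets, placed by its log2 difference between wild-type antennal and wing discs (horizontal axis) and by -log10 of its adjusted p from limma (vertical axis). Coloured points are the 104 calls of at least 2-fold on the antennal side (blue) and the 325 on the wing side (orange); the far left and far right hold selector genes such as Antp, ap and nub, and toy, danr and Dfd.

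Of the Hox genes measured, Dfd and Antp separated the discs, while lab, Ubx, abd-A and Abd-B had no probe set of their own. Dfd, the Hox gene of the maxillary segment, gave signals of 11.24, 11.27 and 11.20 in antennal discs and none above the floor in wing discs (at least 20.0-fold, difference 4.32 ± 0.09 SE, adjusted p = 2.7e-16). Antp, the Hox gene of the thorax, gave 11.38, 11.14 and 11.24 in wing discs and was at the floor on all 3 antennal arrays (at least 20.3-fold, difference -4.34 ± 0.09, adjusted p = 2.4e-16). The discs did not overlap for either gene, and the levels were nearly mirror images.

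A second Antp probe set differed by -3.28, and another was at the floor in both discs. Scr, the Hox gene of the labial and first thoracic segments, was at 7.07, 7.25 and 6.91 in antennal discs and at the floor in wing discs (0.17 ± 0.09, adjusted p = 0.25). It was near the floor in both, against 10.70 ± 0.15 (SD, n = 3) in wild-type leg discs. proboscipedia (pb), a Hox gene of the mouthparts, was at the floor on all 6 arrays.

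Of the other genes of head and trunk identity, oc and tsh differed the same ways, whereas ey, described with the eye genes, was higher in wing discs and tio was not called (-0.08, adjusted p = 0.96). orthodenticle (oc), a head gap gene, was at 9.56, 9.48 and 9.33 in antennal discs and at the floor in wing discs (at least 5.83-fold, adjusted p = 6.4e-12). teashirt (tsh), a trunk gene, was at 10.31, 10.34 and 10.33 in antennal and at 11.38, 11.58 and 11.60 in wing discs (-1.20 ± 0.10, adjusted p = 1.1e-07). Between these 2 discs oc was thus above the floor only in antennal discs, while tsh was present in both and 2.29-fold higher in the wing disc. In wild-type eye discs oc was also above the floor, at 9.82, 9.6, 9.64 and 9.44. In the list of Hox and head or trunk selectors, 9 of 15 genes had a probe set of their own: 3 were higher in antennal discs, 3 higher in wing discs and 3 not called.

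Most listed genes of the antennal programme were higher in antennal discs. danr was at 11.68, 11.64 and 11.65 in antennal discs and at 6.96, 6.91 and 6.91 in wing discs, 26.5-fold lower there (4.73 ± 0.22, adjusted p = 4.3e-11). Its neighbour dan was at 10.27, 10.26 and 10.22 against the floor (at least 10.1-fold, adjusted p = 3.6e-11). Both encode nuclear proteins needed for distal antennal identity, and both were at or next to the floor in wing discs.

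cut (ct), a homeobox gene of the antenna and of external sense organs, was at 10.10, 10.08 and 10.03 against 7.64, 7.27 and 7.32 (2.66 ± 0.15, adjusted p = 3.9e-10). spineless (ss), the bHLH-PAS gene whose loss turns distal antenna into leg, was at 10.41, 10.37 and 10.41 against 9.03, 9.20 and 9.26 (1.23 ± 0.13, adjusted p = 6.1e-06). The discs did not overlap for either gene, but ss was clearly above the floor in the wing disc too, and for ct a pair of other probe sets differed by only -0.08 and -0.24.

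atonal (ato), the proneural gene of chordotonal organs, including Johnston's organ in the antenna, was at 11.05, 11.04 and 11.00 in antennal discs and at 7.16, 7.06 and 7.19 in wing discs (14.9-fold, adjusted p = 5.4e-07). It was higher still in wild-type eye discs, at 11.37, 11.32, 11.4 and 11.38. Of the antennal identity list, 13 of 14 genes were measured: 9 were higher in antennal discs, 0 higher in wing discs and 4 not called, with a median difference of 2.66 against 0 over all probe sets. The 4 not called were lz, amos, cato and salm, and salm had the lowest difference of the list (-1.03). With the 6 arrays alone 1 member was called higher in wing discs. With the phe covariate 8 of the 9 were still called. The exception was Distal-less (Dll), at 12.03, 12.01 and 11.94 in antennal and 10.66, 11.33 and 11.35 in wing discs (0.88 ± 0.20, adjusted p = 0.0095, and 0.15 with the covariate). Other Dll probe sets differed by 1.485 and 0.64 in the fit without the covariate.

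**Figure D2:**
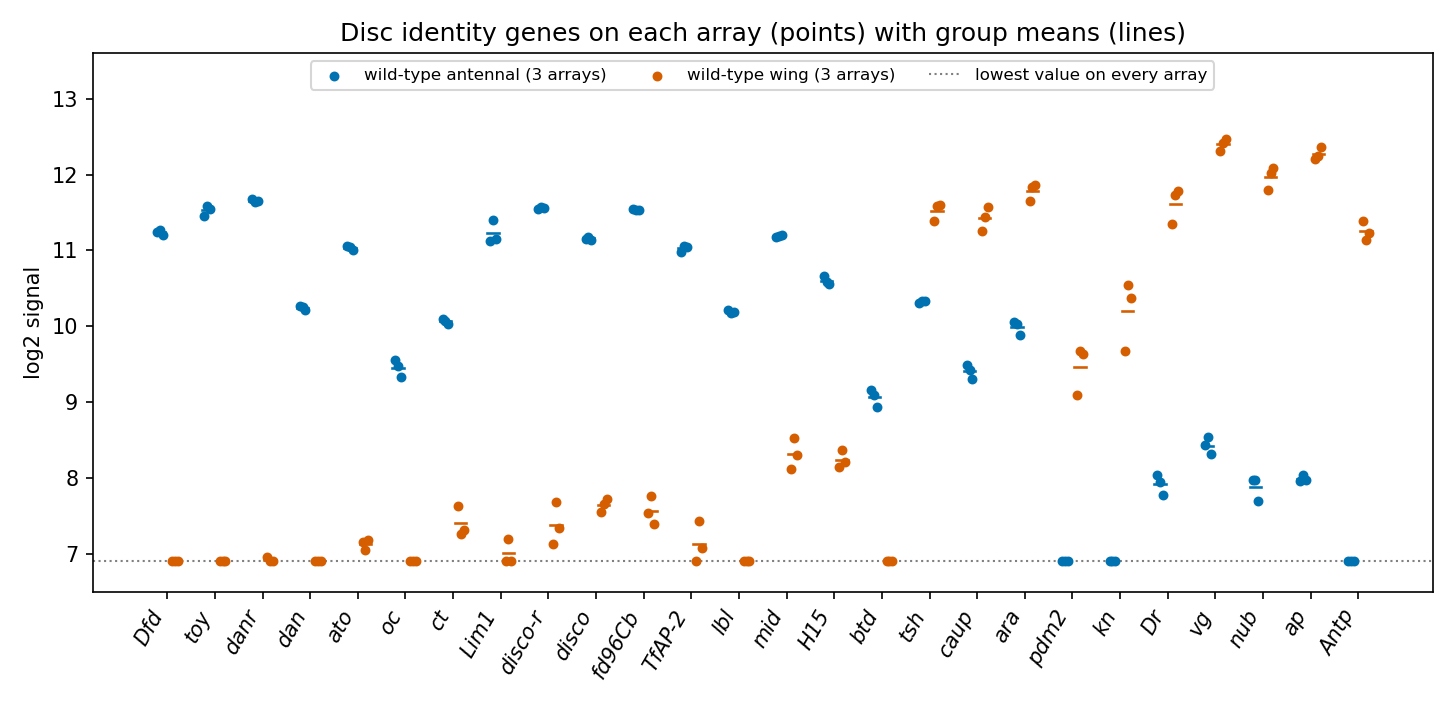
Log2 signal of 26 genes of disc identity on each of the 3 wild-type antennal (blue) and 3 wild-type wing (orange) arrays, with lines at the group means and a dotted line at the floor of 6.91. The genes from Dfd to btd are higher on every antennal array and the genes from tsh to Antp on every wing array, with no overlap between the discs. The genes shown were picked and ordered with these values known, so their separation is no independent support. Listed genes that were not called are not shown.

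A second antennal group is shared with ventral limbs. Lim1, a LIM-homeobox gene of antenna and leg, was at 11.13, 11.40 and 11.16 against 6.91, 7.21 and 6.91 in wing discs (18.6-fold, 4.22 ± 0.13, adjusted p = 8.0e-14). disconnected (disco) was at 11.16, 11.18 and 11.14 against 7.56, 7.67 and 7.72 (11.4-fold, adjusted p = 1.1e-12). Its paralogue disco-r was at 11.54, 11.57 and 11.56 against 7.14, 7.69 and 7.34 (18.0-fold, adjusted p = 4.2e-13), although a second disco-r probe set differed by only -0.01. These zinc finger genes lie next to each other and specify ventral appendages, and they were low on every wing array.

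TfAP-2, a transcription factor of leg joints, was at 10.98, 11.06 and 11.05 against 6.91, 7.43 and 7.08 (14.8-fold, adjusted p = 2.2e-13). A second TfAP-2 probe set went the other way (-0.70, adjusted p = 0.019), so the direction holds for 1 of its 2 probe sets. The T-box genes mid and H15, ventral patterning genes of the leg, differed by 2.86 ± 0.14 (adjusted p = 4.6e-11) and 2.36 ± 0.09 (adjusted p = 2.6e-12). mid was at 11.18, 11.19 and 11.20 against 8.13, 8.54 and 8.31, and H15 at 10.66, 10.58 and 10.55 against 8.14, 8.37 and 8.21. In contrast, the T-box gene bifid (bi, also optomotor-blind), a Dpp target, was 1.72-fold higher in wing discs (adjusted p = 0.00021).

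buttonhead (btd), a ventral appendage selector, was at 9.16, 9.09 and 8.94 against the floor (at least 4.45-fold, adjusted p = 1.2e-12), and its neighbour Sp1 differed by 0.59 (adjusted p = 0.0088), a call lost without wing replicate 2 or 3. bric-a-brac 2 (bab2), a gene of tarsal and distal antennal segments, was at 12.18, 12.20 and 12.20 against 10.70, 11.12 and 11.00 (1.26 ± 0.12, adjusted p = 1.6e-06). Its neighbour bab1 was at 8.34, 8.45 and 8.15 against the floor (at least 2.64-fold, adjusted p = 3.1e-07). dachshund (dac), the gene of the middle leg segments, was at 10.19, 10.20 and 10.19 against 9.99, 10.15 and 9.96 and was not called (0.15 ± 0.09, adjusted p = 0.35).

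Of the 21 genes listed for the proximal to distal axis of ventral appendages, 20 were measured: 13 were higher in antennal discs, 3 higher in wing discs (ap, tsh and rn) and 4 not called, with a median of 0.661. The list shares genes with the antennal list. With the phe covariate 8 and 2 were called.

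Further transcription factor genes of segment patterning were at or near the floor in wing discs. The forkhead gene fd96Cb was at 11.54, 11.54 and 11.53 against 7.54, 7.77 and 7.40 (15.7-fold, adjusted p = 8.4e-14). The homeobox gene ladybird late (lbl) was at 10.21, 10.18 and 10.19 against the floor (at least 9.73-fold, adjusted p = 8.2e-14), and the Pax gene gooseberry (gsb) at 10.24, 10.13 and 10.07 against the floor (at least 9.41-fold, adjusted p = 2.0e-15). Their adjacent paralogues behaved unequally. fd96Ca was not called (0.25 ± 0.13, adjusted p = 0.27), lbe was at the floor on all 6 arrays, and gsb-n, at 8.09, 8.25 and 8.08 against the floor, was at least 2.34-fold higher. These 3 paralogues were chosen after their values were seen.

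The wing selectors were the counterpart. vestigial (vg), the wing selector, was at 8.44, 8.55 and 8.32 in antennal and at 12.31, 12.42 and 12.47 in wing discs (15.7-fold, -3.97 ± 0.41, adjusted p = 3.0e-06). nubbin (nub), a POU gene of the wing pouch, was at 7.98, 7.98 and 7.71 against 11.80, 12.02 and 12.09 (16.9-fold, adjusted p = 7.2e-13). apterous (ap), the selector of the dorsal wing compartment, was at 7.96, 8.05 and 7.98 against 12.20, 12.24 and 12.36 (19.3-fold, adjusted p = 1.7e-10). All 3 were above the floor in antennal discs and far higher in wing discs, without overlap.

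For vg and ap a second probe set gave differences of -3.56 and -3.25, whereas both other nub probe sets were near 0 (-0.15 and 0.08). pdm2, the paralogue near nub, was at the floor in antennal discs and at 9.09, 9.68 and 9.64 in wing discs (at least 5.88-fold, adjusted p = 2.6e-11). Drop (Dr, also msh), a homeobox gene of the dorsal hinge and notum, was at 8.05, 7.95 and 7.78 against 11.35, 11.72 and 11.78 (12.9-fold, adjusted p = 2.8e-07). knot (kn), the factor of the central wing territory between veins 3 and 4, was at the floor in antennal discs and at 9.68, 10.55 and 10.37 in wing discs (at least 9.75-fold, adjusted p = 3.9e-08), while a second kn probe set differed by -0.01.

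Of 18 listed wing identity genes 15 were measured, with a median of -1.0. Of the 15, 9 were higher in wing discs (against 9.58% of all probe sets), 3 higher in antennal discs (against 3.36%) and 3 not called. The 3 that were higher in antennal discs were eyegone (eyg), a Pax gene (0.69), tailup (tup), a LIM-homeobox gene of the notum (0.65), and blistered (bs), a gene of intervein cells (0.61, a call lost without antennal replicate 1). With the phe covariate 6 were called higher in wing discs and 1 higher in antennal discs. salm and salr, zinc finger targets of Dpp signalling in the wing, differed by -1.03 (adjusted p = 0.073) and -1.0 (adjusted p = 0.022), the latter lost without any 1 of 5 arrays (all but wing replicate 1).

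Notum genes were also higher in wing discs. The homeobox genes araucan (ara) and caupolican (caup) of the Iroquois complex, which prepattern the notum, were at 10.06, 10.03 and 9.89 against 11.66, 11.84 and 11.87, and at 9.49, 9.43 and 9.31 against 11.26, 11.44 and 11.57. The differences were -1.79 ± 0.09 (adjusted p = 1.3e-10) and -2.01 ± 0.15 (adjusted p = 5.9e-08). Their neighbour mirror (mirr) differed by -0.93 (adjusted p = 0.024), a call lost without any 1 of the antennal arrays or without wing replicate 2 or 3.

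pannier (pnr), the GATA gene of the dorsal midline, was at 9.58, 9.89 and 9.88 against 10.68, 11.33 and 11.28 (-1.31 ± 0.23, adjusted p = 0.0014). Its cofactor u-shaped (ush) differed by -1.42 (adjusted p = 8.9e-06). Of the 7 measured genes of this list, 6 were higher in wing discs (against 9.58% of all probe sets) and 1, tup, higher in antennal discs, with a median of -1.31. With the phe covariate 4 of the 6 were called (not pnr, -0.94, adjusted p = 0.097, and not mirr, -1.14, adjusted p = 0.11). The list shares pnr, tup and tsh with others.

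**Figure D3:**
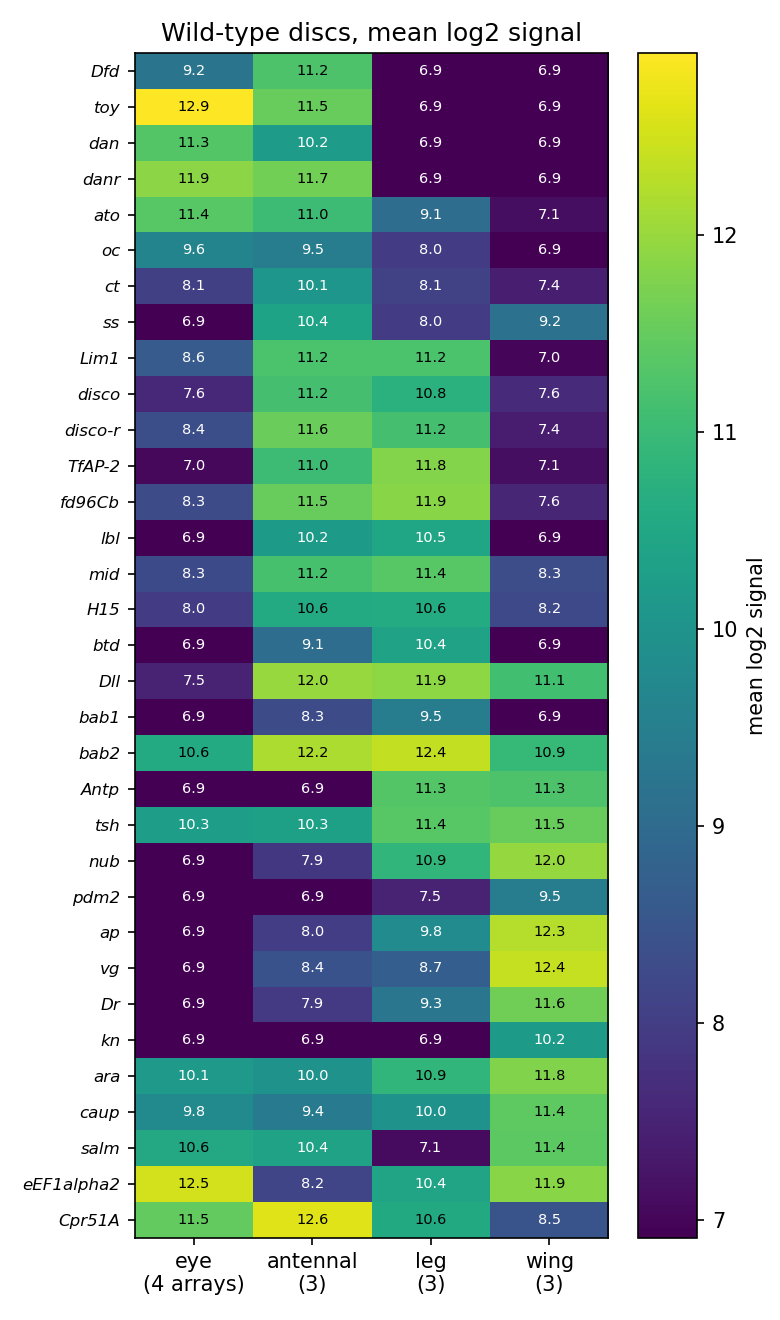
Mean log2 signal of 33 genes (rows) in the 4 kinds of wild-type discs (columns: eye, 4 arrays; antennal, leg and wing, 3 arrays each), with brighter colour for higher signal and the floor at 6.91. toy, dan, danr and Dfd are high in eye and antennal discs, Lim1, disco, disco-r, lbl and mid in antennal and leg discs, Antp in leg and wing discs, and vg, kn and pdm2 are highest in wing discs.

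The other wild-type discs place these genes. toy, dan, danr and Dfd were at the floor on all 3 leg arrays as well, and in eye discs their mean signals were 12.93 ± 0.11, 11.32 ± 0.11, 11.89 ± 0.08 and 9.23 ± 0.19 (SD, n = 4). Lim1, disco and disco-r were at 11.22 ± 0.16, 10.76 ± 0.21 and 11.16 ± 0.24 in leg discs (SD, n = 3) and at 8.64 ± 0.16, 7.58 ± 0.15 and 8.37 ± 0.10 in eye discs. Of these genes, toy, dan, danr and Dfd were thus shared with the eye disc, and Lim1, disco and disco-r were high in the leg disc. ct and ss had means of 8.08 and 7.99 in leg discs, while in eye discs ct was at 8.05 and ss at the floor, so both were highest in antennal discs among the 4.

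On the wing side, Antp was at 11.32 ± 0.19 in leg discs, and its eye signals did not leave the floor. nub was at 10.87 ± 0.09 in leg discs, nearer the wing than the antennal level, whereas vg was at 8.71 ± 0.21 there and kn at the floor. vg, nub, ap, Dr and kn were all at the floor in eye discs. Over the 104 probe sets higher in antennal discs, the leg mean lay nearer the antennal mean for 54 and nearer the wing mean for 50. The eye mean lay nearer the antennal mean for 58 of them and nearer the wing mean for 46. Over the 325 higher in wing discs, the leg mean lay nearer the wing mean for 268 and nearer the antennal mean for 57. The eye mean lay nearer the antennal mean for 303 of them and nearer the wing mean for 22. The leg arrays share the high phe signal of the wing arrays, and the eye arrays the low one of the antennal arrays. Among the 86 wing-side probe sets called with the phe covariate, the leg mean was nearer the wing mean for 46 and nearer the antennal mean for 40.

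The retinal determination genes did not move as a group. twin of eyeless (toy), a Pax6 gene, was at 11.46, 11.59 and 11.54 in antennal discs and at the floor in wing discs (at least 24.6-fold, adjusted p = 2.9e-13). Another toy probe set differed by 1.88, and a further one had means at the floor in both discs. The toy paralogue ey was higher in wing discs, at 10.26, 11.09 and 11.25 against 11.52, 12.48 and 12.36 (-1.25 ± 0.27, adjusted p = 0.0066). In both discs replicate 1 was lowest for ey, as for phe, and with the phe covariate the difference was -0.55 (adjusted p = 0.37). What the ey signal in wild-type wing discs stands for was not tested.

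chaoptin (chp), a photoreceptor surface protein, had the same pattern (-1.47, adjusted p = 0.0022, and -0.79, adjusted p = 0.14, with the covariate). glass (gl), the zinc finger gene of photoreceptor precursors, was at the floor on all 6 arrays. sine oculis (so), at 7.13, 7.11 and 6.92 against 7.61, 7.99 and 7.86, was higher in wing discs (-0.76, adjusted p = 0.018, lost without antennal replicate 3 or wing replicate 2 or 3), and eya, Optix and dac were not called. Of 11 measured genes of this list 4 were higher in antennal discs (toy, dan, danr and eyg), 3 higher in wing discs (ey, so and tsh) and 4 not called.

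Targets of Notch signalling were mostly higher in antennal discs. E(spl)m4-BFM was at 10.97, 11.04 and 11.01 against 9.85, 9.57 and 9.80 (1.27 ± 0.09, adjusted p = 1.2e-08). E(spl)m7-HLH was at 11.02, 11.08 and 10.98 against 9.90, 9.84 and 9.76 (1.20 ± 0.09, adjusted p = 6.5e-08). Both belong to the Enhancer of split complex, whose bHLH and Bearded-family proteins carry out the Notch response. Of the 9 measured members of the complex 5 were higher in antennal discs and 0 higher in wing discs, against 3.36% and 9.58% of all probe sets.

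In the longer Notch list, 11 of 18 genes were measured: 7 were higher in antennal discs and 1, fringe (fng), the glycosyltransferase that modulates Notch at the dorsal-ventral boundary, was higher in wing discs (-0.42 ± 0.06, adjusted p = 0.00022). The 7 were the 5 Enhancer of split genes already counted, ct and neur, so this count is not separate from that of the complex. With the phe covariate 6 and 1 were called. Notch itself and its ligands had no probe set of their own here.

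Some sensory precursor genes were higher in antennal discs too. phyllopod (phyl), an adaptor that promotes sense organ fate, was at 9.10, 9.03 and 8.90 against 7.73, 7.86 and 7.67 (1.26 ± 0.11, adjusted p = 2.3e-07). senseless (sens) differed by 0.83 (adjusted p = 0.0018) and neuralized (neur) by 0.66 (adjusted p = 4.1e-05). The proneural genes achaete (ac) and scute (sc) were not called (-0.01 and 0.10; adjusted p = 1.0 and 0.79). Over the 15 measured genes of the list, 4 (with ato) were higher in antennal discs, 1 was higher in wing discs and 10 were not called, with a median of 0.08.

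Most measured genes of growth factor pathways and of the cell cycle were not called. Wnt6 was at 10.94, 11.10 and 11.02 against 9.74, 9.96 and 9.91 (1.15 ± 0.11, adjusted p = 2.1e-06). It was the gene called among the 3 measured of 14 in the Wnt list, where wg had no probe set of its own. engrailed (en) and invected (inv), the paired posterior compartment selectors, differed by -0.27 and -0.35 (adjusted p = 0.015 and 0.0094), the en call being lost without antennal replicate 2 or wing replicate 2 or 3. hedgehog (hh) was not called (-0.07, adjusted p = 0.89). Of 8 measured compartment and hedgehog genes 1 was higher in antennal and 3 in wing discs, the latter en, inv and kn (-3.29).

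Of 11 measured Dpp pathway genes 1 was higher in antennal discs (dpp, 0.40, lost without any 1 of the 6 arrays) and 3 higher in wing discs (bi, Dad and tok, the last pair lost without any 1 array but wing replicate 1). Of 8 EGF receptor genes 1 went each way, the wing call (aos) being lost without any 1 array but wing replicate 1. Of 7 JAK/STAT genes 1 (et) was higher in wing discs, a call lost without antennal replicate 2 or wing replicate 2 or 3. Of 11 cell cycle genes 2 were higher in wing discs, Mcm3 (-0.34, lost without wing replicate 3) and PCNA (-0.16). Of 15 ecdysone response genes ImpL2, an insulin-binding protein induced by ecdysone, was higher in antennal discs (12.34, 12.33 and 12.31 against 10.43, 10.65 and 11.00; 1.63 ± 0.16, adjusted p = 2.3e-06). The nuclear receptor gene Hr38 was higher in wing discs (-0.89, adjusted p = 0.010), a call lost with the phe covariate and without antennal replicate 1 or wing replicate 2 or 3.

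**Figure D4:**
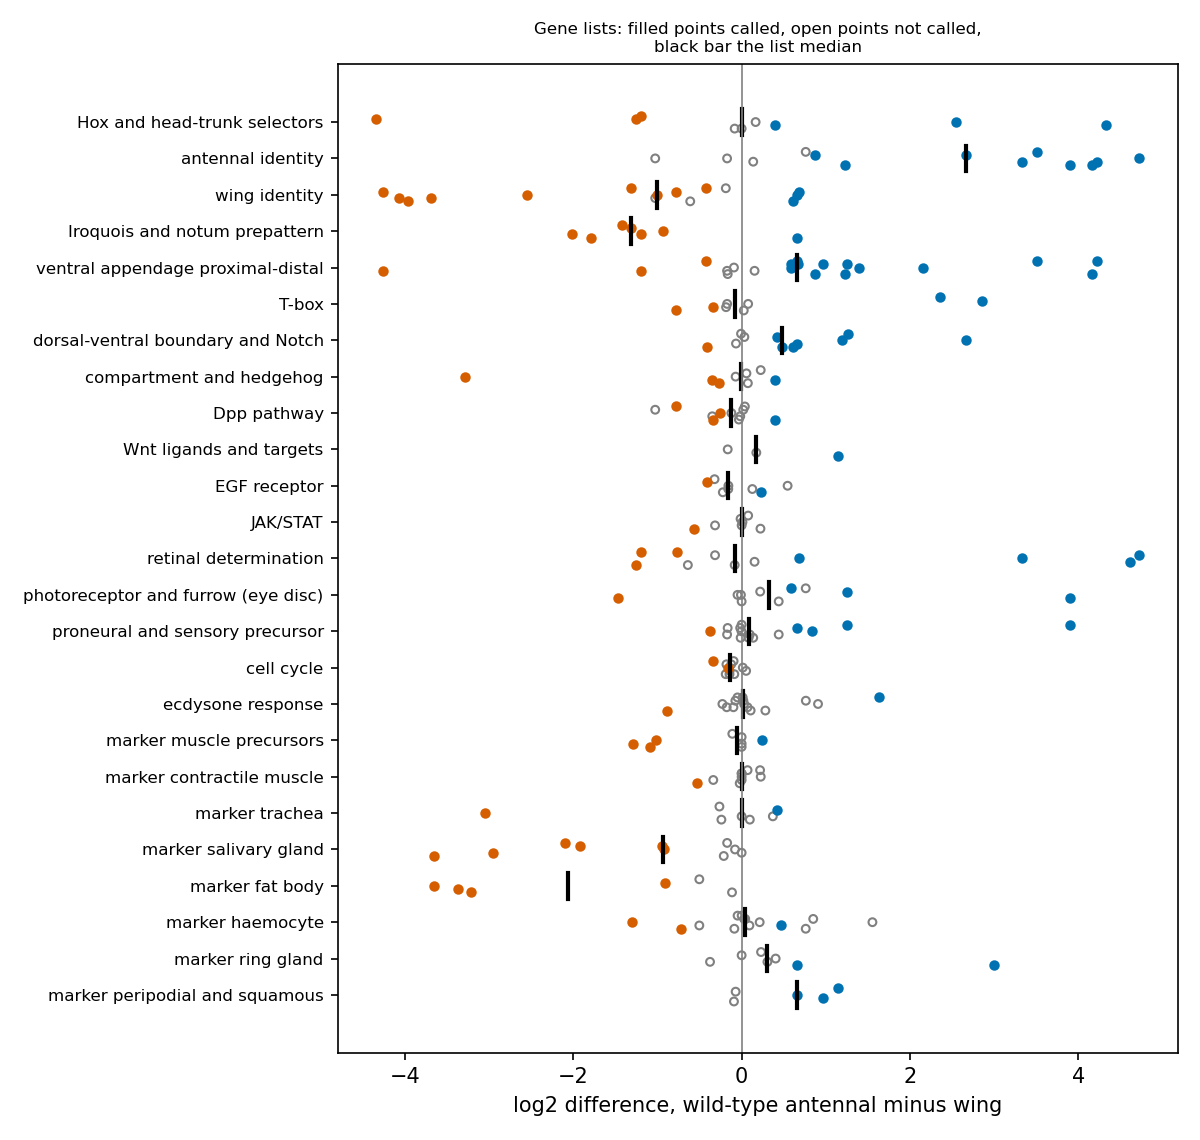
Log2 difference between wild-type antennal and wing discs (horizontal axis) of every measured gene in 25 lists (rows), with filled points for called genes, blue when higher in antennal and orange when higher in wing discs, open points for genes not called and a black bar at the list median. The antennal list has a median of 2.66, and the wing, Iroquois, salivary gland and fat body lists have medians of -1.0, -1.31, -0.93 and -2.06.

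Some of the largest differences lay outside the patterning genes. The largest belonged to CG4382, annotated without a gene name, at the floor in antennal discs and at 11.71, 12.07 and 11.87 in wing discs (at least 31.3-fold, adjusted p = 1.2e-07). Sox15, a Sox-family gene of the wing hinge, was at the floor against 10.49, 10.74 and 10.85 (at least 13.8-fold, adjusted p = 2.5e-07), and ventral veins lacking (vvl), a POU gene of wing veins and trachea, at the floor against 9.53, 10.27 and 10.08 (at least 8.28-fold, adjusted p = 3.7e-11). Other probe sets of these genes differed by only -0.11 and -0.85. eEF1alpha2, a translation elongation factor, was at 8.26, 8.14 and 8.09 in antennal and at 11.84, 11.90 and 11.84 in wing discs (13.0-fold, adjusted p = 6.6e-07), and its leg and eye means were 10.43 and 12.51, so the antennal disc was the low one of the 4.

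On the antennal side, the neuropeptide precursor gene Nplp1 was at 10.84, 10.93 and 10.85 against the floor (at least 15.6-fold, adjusted p = 8.4e-14). spookier (spok), a cytochrome P450 gene of ecdysone synthesis, was at 9.85, 9.94 and 9.96 against the floor (at least 8.02-fold, adjusted p = 0.0014). spok is a gene of the prothoracic gland, which lies in the ring gland near the brain. Of 7 measured ring gland genes 2 were higher in antennal discs (against 3.36% of all probe sets), spok and Akh, the adipokinetic hormone gene (0.66 ± 0.08, adjusted p = 5.7e-05). nvd was at the floor on all 6 arrays and dib was not called, and the summed level of the list was 11.55 to 11.69 in antennal and 11.02 to 11.07 in wing discs. The part of ring gland tissue in the spok difference was not tested.

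Some cuticle and secreted protein genes differed strongly, in both directions. Of 66 measured genes of the Cpr family, chitin-binding cuticle proteins, 18 (27.3%, against 9.58% of all probe sets) were higher in wing discs, 9 of them at least 2-fold, 1 was higher in antennal discs and the median was -0.109. Of the 18, 6 were still called with the phe covariate, and 11, 8 and 13 without antennal replicates 1, 2 and 3 and 17, 8 and 9 without wing replicates 1, 2 and 3. Cpr49Ag was at 7.13, 7.12 and 7.77 against 11.44, 11.30 and 11.12 (15.4-fold, adjusted p = 6.7e-09). Cpr64Aa was at the floor against 10.59, 10.28 and 11.11 (at least 13.4-fold, adjusted p = 1.3e-07). The exception was Cpr51A, at 12.71, 12.61 and 12.61 in antennal and 8.85, 8.14 and 8.46 in wing discs (17.8-fold, adjusted p = 8.6e-09).

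Of 47 measured odorant-binding protein genes 1 was higher in antennal and 5 (10.6%, near the 9.58% of all probe sets) higher in wing discs, with a median of 0. None of the 5 was called with the phe covariate or without wing replicate 2 or 3, and 1 and 2 were called without antennal replicates 1 and 2. Obp99a was at 13.50, 13.48 and 13.50 in antennal and at 10.28, 9.68 and 9.82 in wing discs (11.9-fold, adjusted p = 9.6e-10). Obp99b, 9 coding genes away, went the other way, at 7.50, 7.52 and 7.42 against 10.70, 11.40 and 12.01 (-3.89 ± 1.12, adjusted p = 0.029), a call lost without any 1 array but wing replicate 1. The wing arrays of Obp99b spread over more than 1 log2 unit, whereas the antennal arrays of both genes lay close together.

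Transcripts of the larval fat body and salivary gland were among those higher in wing discs. Fbp2, a fat body protein gene, was at 7.89, 7.74 and 7.75 against 10.65, 11.55 and 12.12 (-3.65 ± 0.66, adjusted p = 0.0017). Lsp2, a larval serum protein made by the fat body, was at 8.79, 8.69 and 8.62 against 10.85, 12.27 and 12.62 (-3.21 ± 0.97, adjusted p = 0.038). Wing replicate 1 was the lowest wing array for both. Of 6 measured fat body genes 4 were higher in wing (against 9.58% of all probe sets) and 0 in antennal discs, with a median of -2.06. The summed level of the list was 11.15 to 11.26 in antennal and 12.89 to 14.21 in wing discs. With the phe covariate 0 of the 4 were called (373 probe sets in all), and 1 was called without wing replicate 2 or 3. Lsp2 and Fbp1 lost their calls without any 1 array but wing replicate 1.

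The glue genes of the salivary gland were highest on the opposite wing array. Sgs8 was at 8.11, 7.99 and 8.20 against 12.98, 11.30 and 10.98 (-3.65 ± 0.64, adjusted p = 0.0015), and Sgs3 at 7.56, 7.52 and 7.88 against 11.11, 10.41 and 10.30 (-2.95 ± 0.42, adjusted p = 0.00020). Of 10 measured genes 6 were higher in wing (against 9.58% of all probe sets) and 0 in antennal discs. The summed level was 11.56 to 11.68 in antennal and 13.06 to 14.73 in wing discs. Sgs7 lost its call without any 1 antennal array or wing replicate 1. Sgs3 and Sgs8 were the 2 of the 6 called with the phe covariate.

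Of the genes of muscle precursors, the adepithelial cells under the notum, 8 were measured, with a median of -0.06. Of the 8, 3 were higher in wing discs (against 9.58% of all probe sets), 1 was higher in antennal discs (against 3.36%) and 4 were not called. twist (twi) was at 9.0, 8.93 and 8.73 against 9.84, 9.92 and 10.18 (-1.09 ± 0.09, adjusted p = 1.3e-07). heartless (htl), their FGF receptor, was at 8.51, 8.48 and 8.54 against 9.95, 9.54 and 9.90 (-1.29 ± 0.13, adjusted p = 2.3e-06), and Him was at the floor against 8.53, 7.47 and 7.80 (at least 2.03-fold, adjusted p = 0.0014). These 3 genes kept their calls with the phe covariate, and the gene higher in antennal discs was wgn (0.24, lost without any 1 of the 6 arrays). Of 10 contractile muscle genes 1 was called, Act87E (-0.53, lost without antennal replicate 1 or 2 or wing replicate 2 or 3). Of 14 haemocyte genes 1 was higher in antennal and 2 higher in wing discs, and the summed levels were 12.67 to 12.86 and 12.94 to 13.44. None of these 3 was called with the phe covariate, or without antennal replicate 1 or wing replicate 2 or 3. In whole discs, fewer cells of a type and less RNA per cell cannot be told apart, and the part of these tissues in the other wing calls was not tested.

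The same pair of discs was measured on 6 other arrays, from Uey antennal and UAS-ey wing discs. There 4707 probe sets (25.1%) were called between the discs, and the phe signal was split the same way, at 8.31 to 8.72 against 10.66 to 11.11. Of the 429 wild-type calls of at least 2-fold, 421 had the same sign on those arrays, 401 were called in the same direction and 1 in the opposite one. The shares of all probe sets with the same sign or the same call were not counted, so these numbers have no background here. Dfd (3.60), toy (4.11), Lim1 (4.26), disco-r (4.34), Antp (-4.58), nub (-4.14), vg (-4.04) and ap (-5.30) all differed as in wild type.

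The difference between the discs itself changed for 177 probe sets (0.943%; 286 without wild-type wing replicate 1 and 360 without UAS-ey wing replicate 1). For danr the antennal level was nearly the same, 11.66 in wild-type and 11.62 to 11.71 in Uey antennal discs, but UAS-ey wing discs reached 9.50 to 9.86 against 6.93 in wild-type wing discs. The difference between the discs was therefore 2.03 in place of 4.73 (change 2.70, adjusted p = 4.2e-05). Cpr51A had the same form, with 11.30 to 11.84 in UAS-ey wing discs against a wild-type mean of 8.49.

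For eEF1alpha2 the antennal level was the one that differed, at 11.12, 11.14 and 11.23 in Uey antennal discs against a wild-type mean of 8.16, and its difference was -0.83 in place of -3.70 (change -2.86, adjusted p = 0.0029). Flight muscle genes separated those discs but not the wild-type ones. Act88F, the flight muscle actin, was at 13.24 to 13.26 in Uey antennal discs and at 6.96 to 7.0 in UAS-ey wing discs, with wild-type means of 6.91 and 7.25. Of the 10 contractile muscle genes 7 were higher in Uey antennal and 1 in UAS-ey wing discs, with a list median of 2.89. Of all probe sets 25.1% were called between those discs in either direction, and the share in each direction was not counted. spok was at the floor on all 6 of these arrays (change 3.0, adjusted p = 0.071), so its level in wild-type antennal discs had no counterpart there. In wild-type eye discs it was at the floor on 1 array and at 9.23, 10.03 and 10.31 on the others.

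**Figure D5:**
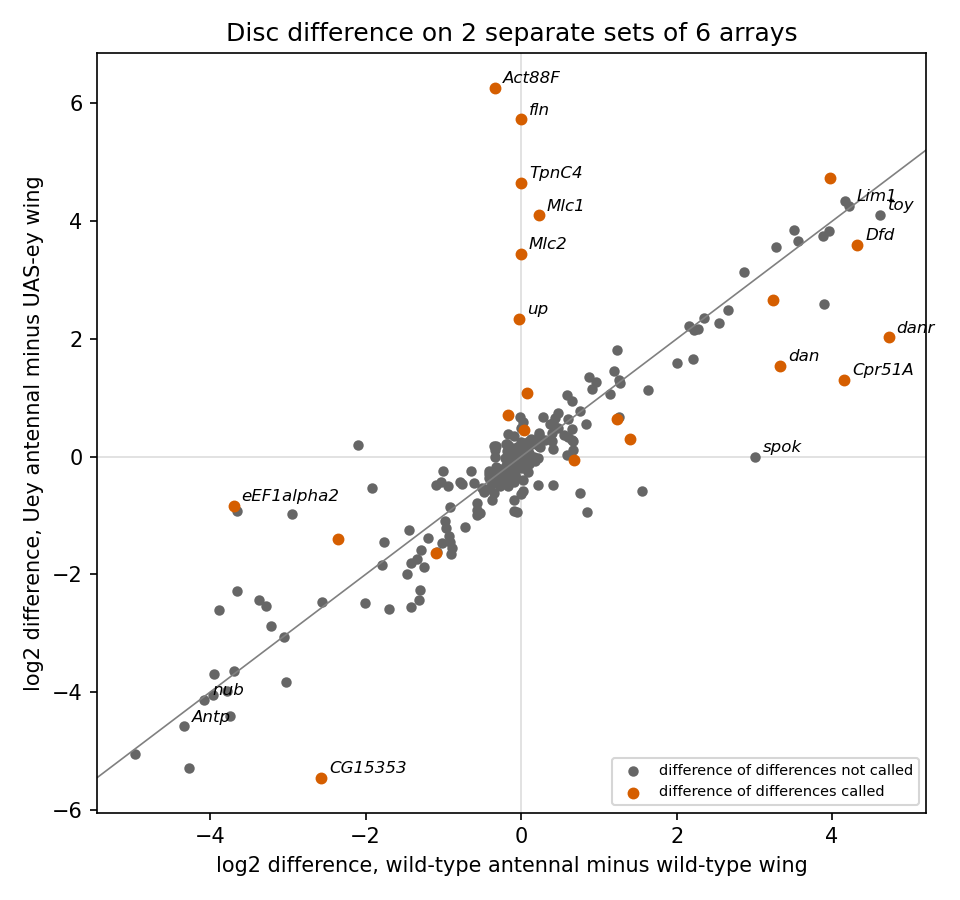
Log2 difference between the discs for the 251 named or listed genes in wild type (horizontal axis) and between Uey antennal and UAS-ey wing discs (vertical axis), on 6 separate arrays each, with a line of equality; orange points are genes whose difference changed (adjusted p under 0.05). Most identity genes lie near the line, danr, dan and Cpr51A lie under it, and the flight muscle genes Act88F, fln, TpnC4, Mlc1, Mlc2 and up stand at about 0 in wild type and between 2.34 and 6.27 on the other arrays.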

How the data were processed

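Per the labels, total RNA of each disc sample was prepared with Trizol, and 100 ng of it was amplified in the two-cycle protocol, labelled with biotin and hybridized to 1 array. The deposited values are log2 signals per probe set, as their range (6.91 to 14.33) showed. How the authors summarised and scaled the signals, and set their common lowest value, was not given in the sources used here. The number of arrays limits the precision. Of 18952 probe sets, 183 controls were left out. The platform annotation named 1 gene for 13647, several for 402 and none for 4720, and only the first were named; 13544 matched the RefSeq gene table (Release 6 plus ISO1 MT), which was used for names and gene order. Of several probe sets of a gene, the brightest on average over the 25 arrays stands for it. Coordinates and sequences are not reported.

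limma 3.58.1 (R 4.3.3) was fitted to all 25 arrays with 1 mean for each of the 8 groups (lmFit, contrasts, eBayes; 17 residual and 0.45 prior degrees of freedom), two-sided, with Benjamini-Hochberg adjustment over 18769 probe sets and a threshold of 0.05. The code was tested on simulated data. Named genes were members of 25 lists (any of the 5 identity and limb lists, of the others up to 6 by adjusted p in each direction) and, on each side, the 15 named and 4 CG- or CR-numbered genes with the largest called difference, no overlap of arrays and a higher mean above the median of all values (7.70). Members not called, and further Cpr, Obp and neighbouring genes, were named to complete a list or family after their values were seen. The members and lists were chosen with earlier results of these data known. Alternatives were the 6 arrays alone, a replicate block, quantile normalization, median centring, no probe sets at the floor throughout, the phe covariate, an intensity trend and each array left out. Deviations of wild-type antennal and wing arrays with the same number correlated at 0.365, 0.284 and 0.069, and those with different numbers at -0.389 to 0.174. The labels give no batch, and the main fit did not pair the samples. Whether arrays of the same number were handled together was not tested.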

Additional observations from a re-analysis of the deposited data

Results flagged for a closer look

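For 13 named genes the difference between the discs in wild type and that between Uey antennal and UAS-ey wing discs were themselves different (limma, adjusted p under 0.05, and at least 1 on the log2 scale). The change was positive, a larger antennal excess or a smaller wing excess in wild type, for danr (2.70), dan (1.79), Cpr51A (2.86), bab1 (1.11) and the wing-high gene CG15353 (2.89). It was negative for eEF1alpha2 (-2.86) and for the muscle genes Act88F (-6.61), fln (-5.73), TpnC4 (-4.66), Mlc1 (-3.87), Mlc2 (-3.44), up (-2.36) and Tm2 (-1.01). Tm2 was at 9.19, 9.35 and 9.44 in Uey antennal discs and had means of 8.17 and 8.10 in wild-type antennal and wing discs.

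In the 4 wild-type eye arrays, used only to place the genes, 1 array lay apart from the other 3 for 3 of 22 genes that varied there. For TfAP-2 the signals were 6.95, 7.33, 6.96 and 6.96 (a gap of 0.969 of the range), for ara 10.18, 10.0, 10.18 and 10.18 (0.978), and for salm 10.51, 10.51, 10.69 and 10.48 (0.860). Chance flags about 1 in 20 such groups.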

How the results depend on the processing

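Of the 236 named genes not at the floor throughout, 132 were called between the wild-type discs, and the direction of these was kept under each alternative run except for Cpr35B, which was 0.036 after centring on array medians in place of -0.11. The loss of calls among the 132 was 0 without the probe sets at the floor throughout and with the intensity trend, 6 with quantile normalization, 14 with centring, 53 with the 6 arrays alone, 60 with the phe covariate, 107 with a replicate block and 7 to 39 with 1 array left out. Centring moved the median of all probe sets to 0.149 and called 8114, of which 3666 were at the floor on all 6 arrays and were called by construction. The number called was 659 with the 6 arrays alone and 373 with the phe covariate, 2726 without the probe sets at the floor throughout and 978 to 3860 with 1 array left out. The number called at 2-fold or more was 171, 179, 445 and 282 to 604 under the same settings, and that of listed genes, 91 as reported and 91 with the probe set brightest on the 6 arrays, was 57 with the 6 arrays alone, 49 with the covariate and 67 to 97 with 1 array left out. Between Uey antennal and UAS-ey wing discs the covariate left 215 calls. The count of changed differences was 132 to 360 with 1 array left out.

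With the replicate number as a block among the 6 arrays, 104 probe sets were called, 47 of them at least 2-fold, and 15 listed genes. Whether the numbers pair the samples was not tested, and that fit has fewer arrays and degrees of freedom. For low genes the floor hides any further difference. Apart from the alternatives named here by their construction, the cause of each change was not tested. The fits of the numbers called at least 2-fold, of the changed differences and of the lists under all settings were chosen after seeing the data.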
